A study of Rattus norvegicus with 15 samples.

Results

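Cholesterol synthesis enzymes were followed in the ductus arteriosus and the aorta of the rat around birth. The genes asked for were Hmgcs1, Idi1, Fdft1, Sqle, Cyp51, Msmo1, Nsdhl, Sc5d and Dhcr7, each represented by every probe set of 3 Affymetrix chip types (A, B and C) that the platform annotation gave to that gene alone. This found 27 of 26202 probe sets, for 8 of the 9 genes and of 10969 genes in all, and Hmgcs1 was not analysed here. The genes were chosen because of values of these same arrays, so their signals and ratios are given as a description with no test.

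The ductus arteriosus joins the pulmonary artery to the aorta before birth and closes after it. The 5 states were the newborn ductus (3 h after vaginal delivery), the oxygen ductus (from fetuses of day 19, taken by caesarean section after 3 h of 100% oxygen given to the dam), the fetal ductus (day 19, caesarean section, dam in normal air), the newborn aorta (3 h after vaginal delivery) and the fetal aorta (day 19, caesarean section). Both aorta samples were of the arch and thoracic part. Per the labels, all vessels were cleaned of adhering tissue in cold medium gassed with 12.5% oxygen for newborns and 2.5% for fetuses. Newborn and fetal samples thus differ in age, route of delivery and gas of the dissection medium, which cannot be told apart, and no strain, no sex and no number of animals behind an array was given. Each state had 1 array per chip type, 15 in all, so every ratio compares 2 arrays and the number of arrays limits the precision.

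Values are the deposited signal intensities, which had the same trimmed mean on every array. The floor was the pooled median signal of a chip, which was 149.8 for A, 241.7 for B and 243.0 for C. Lower signals were set to it, and from 46.9% to 51.8% of an array's probe sets exceeded it. Each gene was represented by its brightest probe set (highest mean of the 5 signals), which for all 8 enzymes lay above the floor in all 5 states. As a yardstick for error, the spread of the log2 ratio of an unchanged gene was estimated from the vessel-by-stage interaction, with a median SD of 0.30 (0.24 to 0.35 by chip and signal). Of 7 smooth muscle markers 6 had a probe set, and all 6 were above the floor in all 5 states. In bulk tissue, fewer cells of a type and less RNA per cell cannot be told apart.

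Cholesterol is built from acetyl-CoA through mevalonate and isoprenoid units to squalene, which is oxidised and closed into the first sterol, lanosterol, and trimmed in further steps to cholesterol. Animal cells switch these genes on together when membrane sterol is low, through the transcription factor SREBP-2, made by Srebf2. SREBP factors bind sterol response elements near the gene start and work there with NF-Y, which binds CCAAT, and Sp1, which binds GC boxes. Growing tissue needs cholesterol for new membranes, and rare defects of the last enzymes disturb development in humans.

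The 250 bases before the gene start were examined as a description (RefSeq, GRCr8, 6 of the 8 enzymes matched). Motifs were searched on both strands and compared with 33469 promoters of all genes. The sterol element TCACCCCAC was in 0 of the 6 and in 0.409% of all promoters, and its looser form TCACNCCAC, which includes the first, was in 0 of the 6 and 0.974% of all. The CCAAT box, which reads ATTGG on the opposite strand, was in 4 of the 6 (Idi1, Msmo1, Nsdhl and Sc5d) and 34.0% of all promoters. GGGCGG, the core of a GC box, was in 4 of the 6 (Cyp51, Dhcr7, Msmo1 and Sc5d) and 30.5% of all, and the E-box CACGTG was in 1 of the 6 (Sc5d) and 5.59% of all. A match is a description of the letters and not a binding site. With 6 promoters of genes chosen on their signals, nothing is read from these shares. The promoters of Idi1, Msmo1 and Nsdhl, chosen after the motif search because they hold 2, 3 and 5 copies of CCAAT, are shown with CCAAT or ATTGG in capitals. They lie at chr17:66547525-66547774 (minus strand) for Idi1, at chr16:29746863-29747112 (plus strand) for Msmo1 and at chrX:155817110-155817359 (plus strand) for Nsdhl, printed 5′ to 3′ along the gene.
Idi1: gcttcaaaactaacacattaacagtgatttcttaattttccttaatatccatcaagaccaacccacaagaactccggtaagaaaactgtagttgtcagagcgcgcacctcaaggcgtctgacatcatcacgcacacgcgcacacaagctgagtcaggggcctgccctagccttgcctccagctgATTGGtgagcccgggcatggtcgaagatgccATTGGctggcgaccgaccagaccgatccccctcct
Msmo1: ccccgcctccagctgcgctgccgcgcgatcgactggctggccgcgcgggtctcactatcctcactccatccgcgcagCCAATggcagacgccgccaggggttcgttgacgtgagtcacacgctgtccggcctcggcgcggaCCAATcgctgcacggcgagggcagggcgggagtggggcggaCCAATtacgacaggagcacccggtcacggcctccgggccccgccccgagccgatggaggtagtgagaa
Nsdhl: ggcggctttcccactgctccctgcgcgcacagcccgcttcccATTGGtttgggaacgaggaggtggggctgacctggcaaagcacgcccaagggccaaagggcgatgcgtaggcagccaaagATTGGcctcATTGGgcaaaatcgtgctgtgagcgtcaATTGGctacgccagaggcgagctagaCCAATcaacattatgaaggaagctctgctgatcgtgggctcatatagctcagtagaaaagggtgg
In Idi1 both copies read ATTGG, with the outermost bases 35 and 66 bases before the start, while the Msmo1 copies all read CCAAT and lie 68 to 173 bases before it. Nsdhl has 4 copies as ATTGG and 1 as CCAAT, 65 to 208 bases before its start.

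All 8 enzymes had lower signals in the newborn vessels than in the fetal vessels, in the ductus and in the aorta alike. At the brightest probe set of each of the 8, the lowest of the 3 fetal-stage signals, the oxygen ductus included, was above the higher newborn signal. Other probe sets of Dhcr7 and Cyp51, given below, did not keep this order. The highest state was 1.47-fold (Fdft1) to 4.01-fold (Msmo1) above the lowest.

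Idi1 makes dimethylallyl diphosphate, the starter unit of isoprenoid chains. Its signal was 329 in the newborn ductus and 767 in the oxygen ductus, against 763.5 in the fetal ductus, and 519.5 in the newborn aorta, against 1039.9 in the fetal aorta. The ductus exposed to oxygen and the unexposed fetal ductus had nearly the same signal, and the newborn ductus stood lowest. Fdft1, squalene synthase, joins farnesyl units into squalene, the first step that commits to sterols. Its signal was 1875 in the newborn ductus and 2253 in the oxygen ductus, against 2645 in the fetal ductus, and 1832 in the newborn aorta, against 2690.5 in the fetal aorta. Fdft1 had the smallest span of the 8 enzymes and was the single one with the newborn aorta as its lowest state at the brightest probe set. The newborn states differed there by 0.03 on the log2 scale.

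Sqle, squalene epoxidase, is a rate-limiting enzyme of the sterol part of the pathway and uses molecular oxygen. It had 407 in the newborn ductus and 1008 in the oxygen ductus, against 1094 in the fetal ductus, and 493 in the newborn aorta, against 1537.5 in the fetal aorta. Both newborn signals were under every fetal-stage signal by more than 2-fold. Cyp51, the cytochrome P450 that demethylates lanosterol, had 753 in the newborn ductus and 1298.5 in the oxygen ductus, against 1492 in the fetal ductus, and 902.5 in the newborn aorta, against 1651 in the fetal aorta. The 3 fetal-stage signals of Cyp51 stood close together above the newborn pair.

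Msmo1, the methylsterol monooxygenase, starts the removal of the methyl groups that follow. It had 687 in the newborn ductus and 2108.5 in the oxygen ductus, against 1794 in the fetal ductus, and 888 in the newborn aorta, against 2750.4 in the fetal aorta, the widest span of the 8. Nsdhl, a sterol dehydrogenase, carries out the decarboxylation in the same series of steps. Its signal was 280.4 in the newborn ductus and 433 in the oxygen ductus, against 542 in the fetal ductus, and 374 in the newborn aorta, against 668 in the fetal aorta. The Nsdhl signal of the newborn ductus lay just above the floor of its chip.

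Sc5d, a desaturase, and Dhcr7, which reduces dehydrocholesterol to cholesterol, act at the end of the pathway. Sc5d had 311 in the newborn ductus and 666 in the oxygen ductus, against 627 in the fetal ductus, and 378 in the newborn aorta, against 631 in the fetal aorta. Here the 3 fetal-stage signals were within 0.09 of each other on the log2 scale, and Sc5d was the single enzyme whose highest state was the oxygen ductus. Dhcr7 had 205 in the newborn ductus and 505 in the oxygen ductus, against 554 in the fetal ductus, and 301 in the newborn aorta, against 722 in the fetal aorta. At the brightest probe sets, 7 of the 8 enzymes had the newborn ductus lowest and the newborn aorta next, and 7 had the fetal aorta highest. Neighbours within that order often differed by less than the yardstick SD, for example fetal ductus and fetal aorta in Sc5d and Fdft1.

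**Figure D1:**
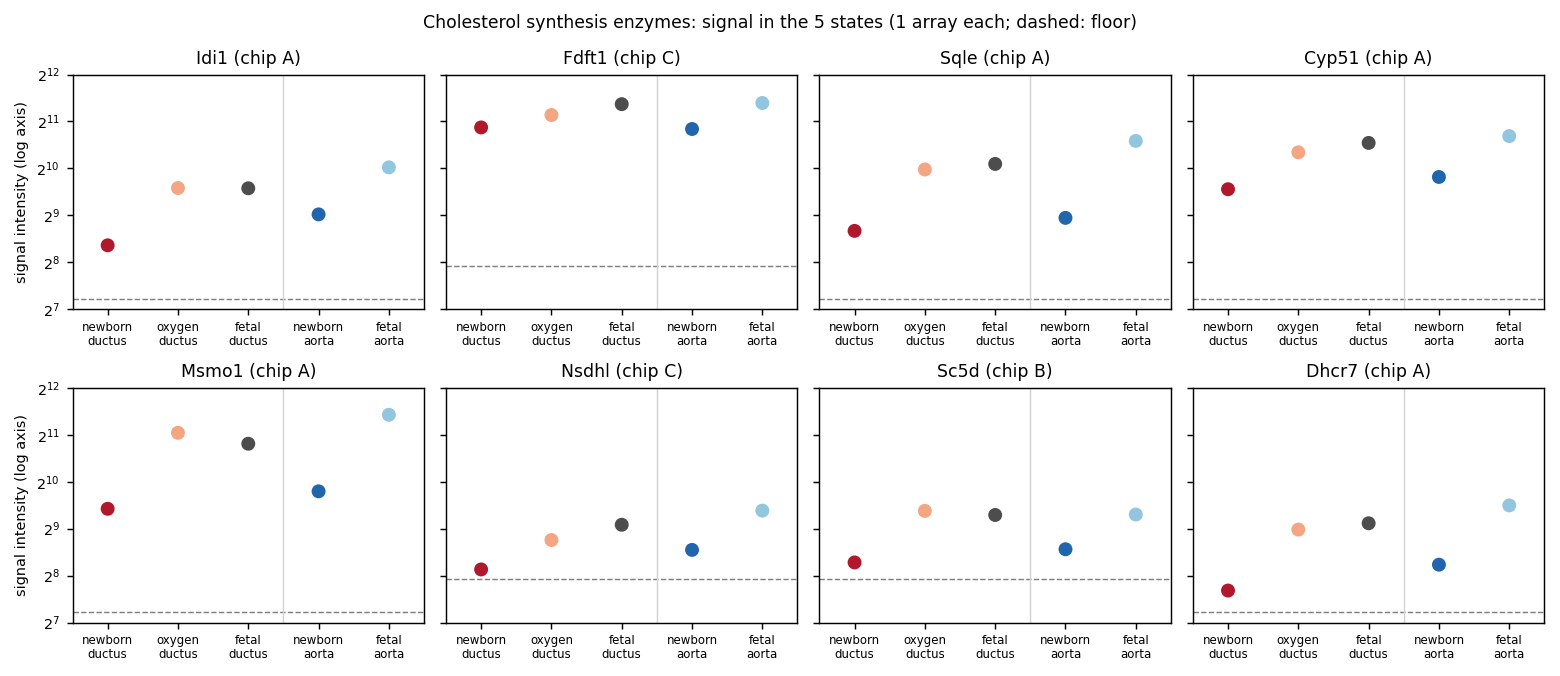
Signal intensity (log axis) of 8 cholesterol synthesis enzymes in the 5 states, each point 1 array, with the floor of the chip as a dashed line. Each panel shows the brightest probe set of a gene. In every panel the newborn ductus and newborn aorta lie under the oxygen ductus, fetal ductus and fetal aorta, with spans of the highest over the lowest state of 3.16-fold in Idi1 and 4.01-fold in Msmo1.

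Birth in the ductus was read as the ratio of newborn to fetal ductus. All 8 log2 ratios were below 0, with a median of -1.11, beside -0.05 over the 7551 genes compared, and 7 of the 8 enzymes were at least 1.5-fold lower, where 9.59% of all genes were. Since the enzymes were chosen on this contrast, nothing is read from that difference in share. At least 2-fold lower were 5 of the 8 (1.79% of all genes), namely Dhcr7 (log2 ratio -1.43), Sqle (-1.43), Msmo1 (-1.39), Idi1 (-1.21) and Sc5d (-1.01). Cyp51 (-0.99) and Nsdhl (-0.95) followed, and Fdft1 (-0.50) was the enzyme under 1.5-fold. All 8 ratios were larger in size than the yardstick SD of 0.30. The choice of the enzymes on this contrast favours this and the ranks that follow, so neither is evidence of a change. Among the 7551 genes, 27 had a lower ratio than Dhcr7, 29 than Sqle and 35 than Msmo1, against 1012 for Fdft1.

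The same contrast in the aorta gave ratios of similar size. The median log2 ratio of newborn to fetal aorta was -0.94, beside -0.05 over 7676 genes, with 7 of the 8 enzymes at least 1.5-fold lower (11.0% of all genes) and 4 at least 2-fold lower (2.71%). Sqle (-1.64) and Msmo1 (-1.63) were lowest, followed by Dhcr7 (-1.26), Idi1 (-1.001), Cyp51 (-0.87), Nsdhl (-0.84), Sc5d (-0.74) and Fdft1 (-0.55). Of the 7676 genes, 20 had a lower ratio than Sqle and 22 than Msmo1. The ratio in the ductus minus that in the aorta ran from -0.27 (Sc5d) to 0.24 (Msmo1), within 1 yardstick SD of such a difference (0.43) for all 8. With 1 array per state this does not show that the vessels respond alike.

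**Figure D2:**
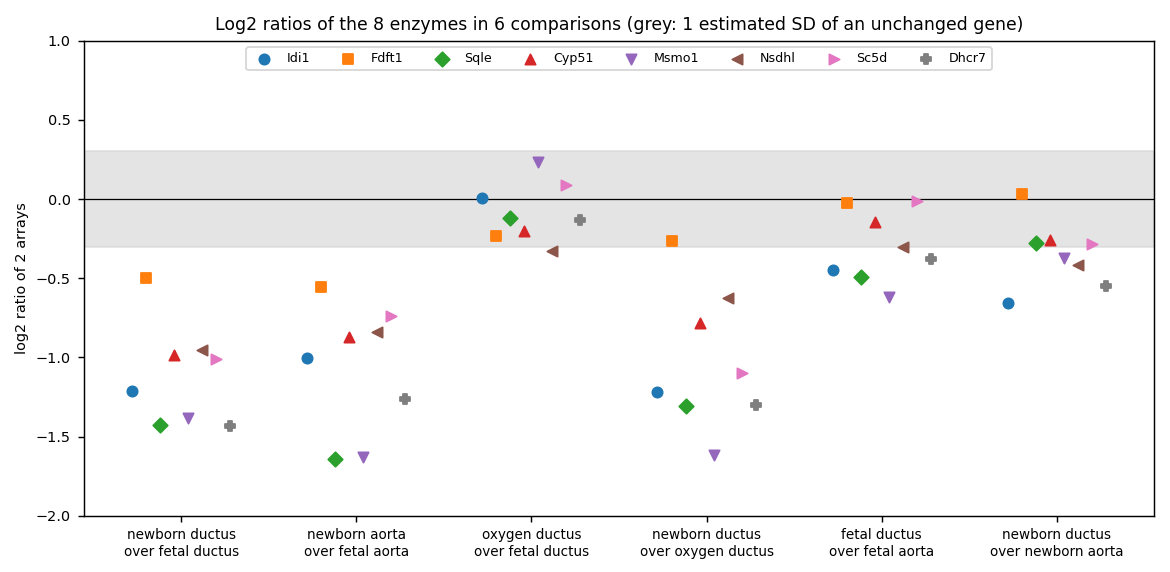
Log2 ratios of 8 enzymes in 6 comparisons of 2 arrays each, with 1 yardstick SD (0.30) of an unchanged gene shaded in grey. Ratios of newborn to fetal ductus and of newborn to fetal aorta lie between -1.64 and -0.50, those of oxygen to fetal ductus between -0.33 and 0.23.

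Maternal oxygen was given, per the labels, to imitate the condition of the newborn before birth. The enzymes had a median log2 ratio of oxygen to fetal ductus of -0.13, beside 0.04 over 7457 genes. At least 1.5-fold higher or lower were 0 of the 8 (4.44% and 5.38% of all genes). With shares this small, a count of 0 among 8 genes says little about the enzymes. For 7 of the 8 the ratio was within 1 yardstick SD, and Nsdhl (-0.33) was just beyond it. No oxygen array entered that yardstick, and the share of all genes within it was not counted here. The 4 enzymes known to use molecular oxygen had ratios of -0.12 (Sqle), -0.20 (Cyp51), 0.23 (Msmo1) and 0.09 (Sc5d), and the others 0.01 (Idi1), -0.23 (Fdft1), -0.33 (Nsdhl) and -0.13 (Dhcr7). Against the oxygen ductus, the newborn ductus had a median log2 ratio of -1.16, beside -0.09 over 7534 genes, with 7 of the 8 at least 1.5-fold lower (14.5% of all genes). Msmo1 (-1.62), Sqle (-1.31), Dhcr7 (-1.30), Idi1 (-1.22) and Sc5d (-1.10) were at least 2-fold lower (3.24% of all genes), Cyp51 had -0.79 and Nsdhl -0.63, and Fdft1 (-0.26) was within 1 SD. The comparisons of newborn, oxygen and fetal ductus share arrays, so their ratios are linked by construction.

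**Figure D3:**
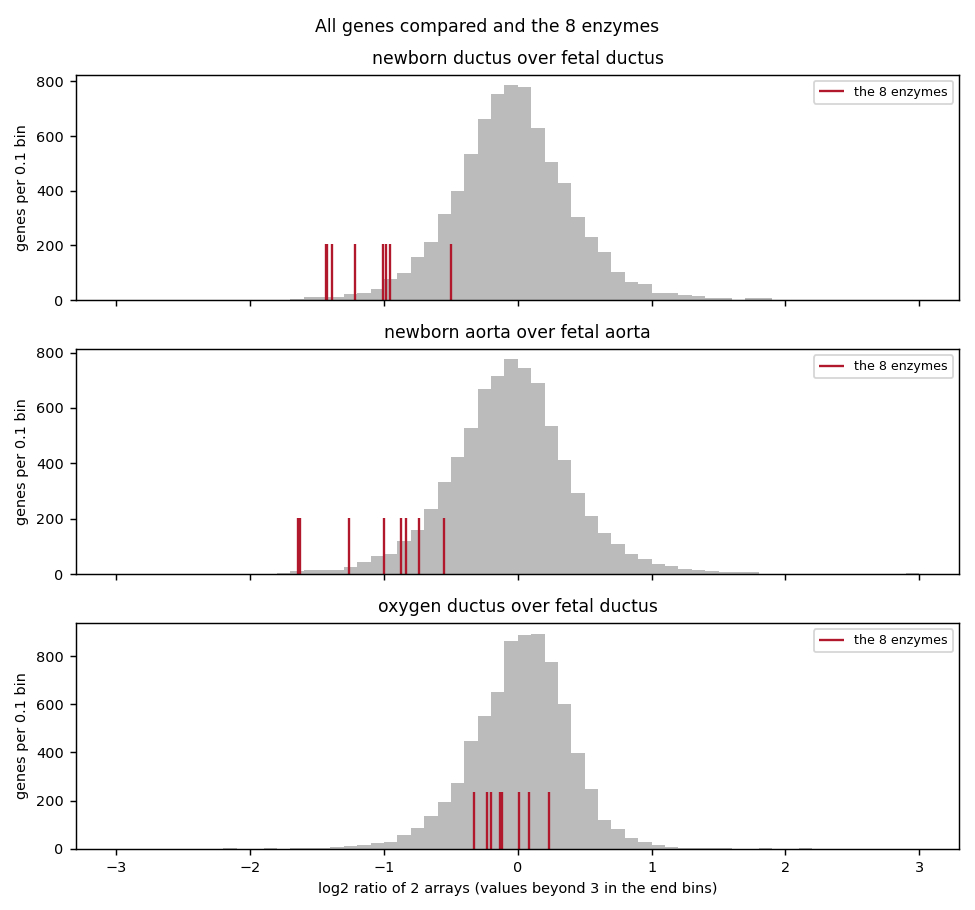
Histograms of the log2 ratio of all genes compared (bins of 0.1, y axis in genes per bin) for newborn over fetal ductus, newborn over fetal aorta and oxygen over fetal ductus, with the 8 enzymes as red lines. In the upper and middle panels the lines lie left of the centre, with medians of -1.11 and -0.94, and in the lower panel they lie within the bulk, with a median of -0.13.

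Between the vessels at a given stage the differences were smaller. In the fetus all 8 enzymes had log2 ratios of ductus to aorta below 0 (median -0.34, beside -0.02 over 7610 genes), and 1 was at least 1.5-fold lower (5.1% of all genes), Msmo1 at -0.62. Sqle (-0.49), Idi1 (-0.45) and Dhcr7 (-0.38) were also beyond 1 SD, Nsdhl was at -0.30, and Cyp51 (-0.15), Fdft1 (-0.02) and Sc5d (-0.01) were within it. After birth 7 of the 8 had ratios of newborn ductus to newborn aorta below 0 (median -0.33, beside -0.01 over 7528 genes), and Idi1 (-0.66) was at least 1.5-fold lower, as 5.98% of all genes were. Dhcr7 was at -0.55, Nsdhl at -0.42, Msmo1 at -0.37, Sc5d and Sqle at -0.28, Cyp51 at -0.26 and Fdft1 at 0.03, whose sign turned under quantile normalization (-0.01).

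The other probe sets of the same genes were set beside these. Of the 27 probe sets, 16 were above the floor on all 5 arrays of their chip, 24 on at least 1 and 3 on none (of Idi1 on chips A and C, and of Sqle on chip C). Newborn over fetal ductus, all 21 probe sets above the floor on either array had ratios below 0, from -1.73 to -0.10 with a median of -0.83, and 14 were at least 1.5-fold lower. Newborn over fetal aorta, all 24 were below 0, from -1.98 to -0.10 with a median of -0.85, and 16 were at least 1.5-fold lower. Over all genes at their brightest probe set, 9.59% were at least 1.5-fold lower in the ductus and 11.0% in the aorta. The share over all probe sets is not given here. The enzymes were chosen on these values, so nothing is read from the counts. Probe sets of 1 gene measure the same RNA and are not replicates, and those whose name ends in s_at can take up similar transcripts.

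Where probe sets of an enzyme disagreed in newborn over fetal ratios, it was mostly in size. Fdft1 had 7, with ratios in the ductus from -0.76 (M95591_at) to -0.10 (M95591_g_at) and in the aorta from -1.03 (M95591_at) to -0.36. In newborn ductus over newborn aorta they disagreed in sign, from -0.15 (M95591_at) to 0.60 (M95591_g_at). The other Msmo1 probe set (E12625cds_at) had -1.73 in the ductus and -1.98 in the aorta, and was lower in the newborn vessels at 200.3 in the ductus, against 666 in the fetal ductus, and at 283.5 in the aorta, against 1121 in the fetal aorta. The other Dhcr7 probe set (AB016800_at) had -1.13 in the ductus and -0.34 in the aorta, so it placed the newborn ductus further under the newborn aorta (-1.21) than the brightest did (-0.55). There the newborn aorta (460.2) was above the oxygen ductus (382.1) and the fetal ductus (434). In the comparison of oxygen with fetal ductus 15 of 23 probe sets were lower and 8 higher, and the 2 that were at least 1.5-fold lower both belonged to Cyp51. These were rc_AA997614_s_at, at 197 in the oxygen ductus against 448 in the fetal ductus (-1.18), and rc_AI230255_at, whose oxygen signal was under the floor (a bound of -0.83). The 3 other Cyp51 probe sets had ratios of -0.20, 0.14 and 0.31, so the gene gave no common direction with oxygen. At rc_AA997614_s_at the newborn ductus (266.4) and newborn aorta (310.4) were both above the oxygen ductus (197.2). At rc_AI230255_at the newborn aorta (207.9) was above the oxygen ductus (138.1). Newborn over oxygen ductus, 20 of 21 probe sets were below 0, and rc_AA997614_s_at was above it (0.43).

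**Figure D4:**
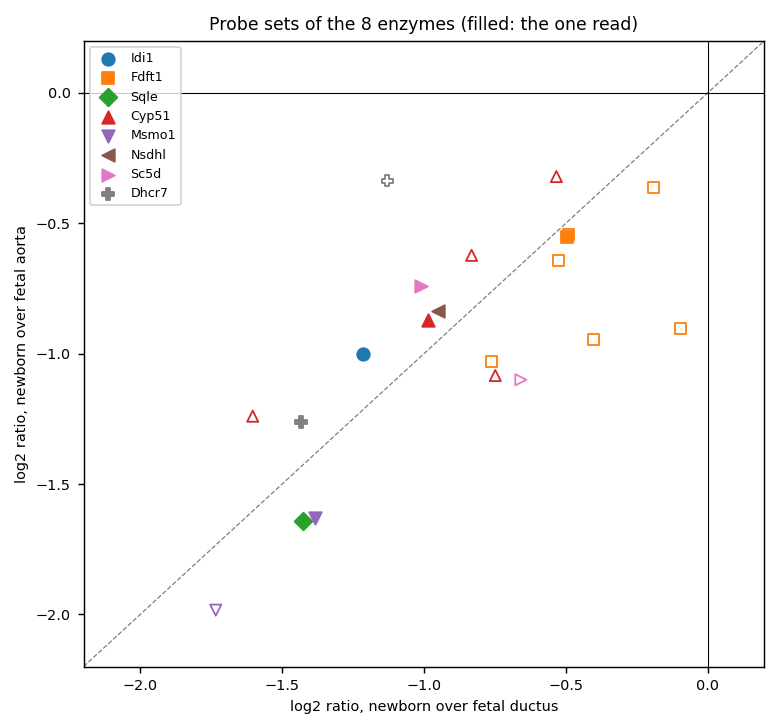
Each probe set of the 8 enzymes measured in both contrasts, with the log2 ratio of newborn to fetal ductus on the x axis and of newborn to fetal aorta on the y axis (filled symbols are the brightest probe set of a gene, the dashed line marks equal ratios). All points lie left of and below 0, with Msmo1 at the lower left (-1.73 and -1.98).

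Other steps of the pathway came from a list of 13 genes, 11 of them analysed here. Newborn over fetal ductus, all 11 had ratios below 0 (median -0.55) and 4 were at least 1.5-fold lower (9.59% of all genes). Newborn over fetal aorta, 9 of 10 were below 0 (median -0.70) and 6 were at least 1.5-fold lower (11.0% of all genes). With oxygen, 1 of 11 was at least 1.5-fold lower (5.38% of all genes, list median -0.16). These genes were also taken from a fit across all probe sets (limma, vessel and stage as additive terms on 4 arrays, 1 residual degree of freedom), in which 0.731% of 13810 probe sets were called lower after birth and 0.956% higher. Of the 10 list genes fitted, 3 were called lower and 0 higher. At an unadjusted limma p under 0.05, 8 were lower and 0 higher. Over all probe sets 18.6% were past that level, counted in both directions together. The list belongs to the pathway of the chosen enzymes and was made with earlier results known, so these calls are no independent evidence. Between the vessels limma called 0 of these 10 (2 lower at an unadjusted p under 0.05), where 0.0145% of all probe sets were called higher and 0.0217% lower in the ductus.

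The 3 called genes work in the early steps (Acat2 and Mvd) and in the trimming of lanosterol (Tm7sf2). Acat2, a thiolase that joins acetyl-CoA units, had 761 in the newborn ductus and 1928 in the oxygen ductus, against 1688 in the fetal ductus, and 758 in the newborn aorta, against 2508.5 in the fetal aorta. Both newborn signals were under all fetal-stage ones, and the birth effect was -1.44 (SE 0.22, limma adjusted p = 0.0244, range over 4 alternatives 0.000673 to 0.127). Mvd, mevalonate diphosphate decarboxylase, had 163.5 in the newborn ductus and 429 in the oxygen ductus, against 469 in the fetal ductus, and 317 in the newborn aorta, against 659.5 in the fetal aorta. Its birth effect was -1.29 (SE 0.21, limma adjusted p = 0.0288, range over 4 alternatives 0.00656 to 0.143). Tm7sf2, a sterol reductase, had 240.8 in the newborn ductus, under the floor, and 369 in the oxygen ductus, against 411 in the fetal ductus, and 272 in the newborn aorta, against 768 in the fetal aorta. Its birth effect was -1.13 (SE 0.24, limma adjusted p = 0.0455, range over 3 alternatives 0.0356 to 0.0727). Each of the 3 was called in 2 of its alternatives, and on 1 residual degree of freedom these p-values lean on the spread shared across probe sets.

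The remaining genes of the list were not called at their brightest probe set or were not fitted. Fdps, which builds the farnesyl unit, had a log2 ratio of -0.38 in the ductus and -0.58 in the aorta, while its next brightest probe set (M89945mRNA_g_at) had -1.03 and -0.98. Its dimmest probe set (rc_AI180442_at) had -0.58 and -0.38. For birth the probe sets of Fdps thus gave the same direction and different sizes. With oxygen rc_AI180442_at had 1.12, while the brightest had 0.11 and M89945mRNA_g_at 0.28. Lss, which closes the sterol rings, had -0.55 and -0.64, and Erg28, a scaffold of the demethylation steps, had -0.34 and -0.77, with -0.10 and -0.95 at its other probe set. Mvk, mevalonate kinase, was under the floor in both newborn vessels and at 224 and 270 in the fetal ductus and aorta, so its ratios (-0.58 and -0.85) are bounds. Lbr, a nuclear membrane protein with sterol reductase activity, was under the floor in the newborn and the oxygen ductus and at 235 in the fetal ductus, a bound of -0.65 in each. Ebp, a sterol isomerase, had -0.14 and -0.37, and Pmvk, phosphomevalonate kinase, had -0.02 and 0.04. Hsd17b7, a ketosteroid reductase, was under the floor at 84.5 in the newborn ductus and 91.3 in the oxygen ductus, against 151 in the fetal ductus, just above it, and under it in the newborn and fetal aorta (80.7 and 149.6). The floor therefore sets its ratio in the ductus, which was -0.01 as a bound and -0.84 with the floor at 0.5 times the pooled median.

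Genes that control sterol level or use the same precursors were counted likewise. Of the uptake and feedback list, 2 of 7 genes were at least 1.5-fold lower in newborn than in fetal ductus (median -0.23), where 9.59% of all genes were. Higher by that margin were 0 of 7, where 7.56% of all genes were higher. In the aorta 1 of 8 was lower (11.0% of all genes). For birth limma called 0 of 7, with 2 lower and 0 higher at an unadjusted p under 0.05. Insig1, which holds SREBP back when sterol is plentiful and is itself an SREBP target, had 1078 in the newborn ductus and 1250.0 in the oxygen ductus, against 1263 in the fetal ductus, and 1793 in the newborn aorta, against 2192 in the fetal aorta. Its birth ratios (-0.23 and -0.29) were within 1 SD, while another of its 4 probe sets (L13619_g_at) had -0.56 in the ductus and 0.07 in the aorta. Srebf2, the main SREBP gene of sterol synthesis, had ratios of -0.45 in the ductus and -0.94 in the aorta. Srebf1, which drives fatty acid synthesis, had -0.78 in the ductus and 0.50 in the aorta, and Mbtps1, a protease that activates SREBP, -0.70 and -0.31.

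Efflux and esterification genes had a median ratio of 0.06 in the newborn over the fetal ductus, with 1 of 10 at least 1.5-fold higher (Mylip, a ubiquitin ligase, at 0.60) and 1 lower (Lcat, the cholesterol-esterifying enzyme of plasma, at -0.72). Over all genes, 7.56% were higher and 9.59% lower by that margin in newborn over fetal ductus. In newborn over fetal aorta 11.0% were lower, and in oxygen over fetal ductus 5.38%. The lists were made with earlier results known, so nothing is read from their counts beside these shares. In the oxygen ductus 3 of 9 were at least 1.5-fold lower than in the fetal ductus, namely Abcg1 (-0.70), a sterol exporter, Soat1 (-0.60), which esterifies cholesterol in cells, and Lcat (-0.67). The oxygen signals of Abcg1 and Soat1 were under the floor, so their ratios are bounds. Both Soat1 and Abcg1 had ratios near 0 in the newborn over the fetal ductus (0.00 and -0.05). Genes of the isoprenoid branches had a median of -0.33, with 2 of 8 lower, Dolk (dolichol kinase, -0.92) and Coq2 (a ubiquinone synthesis enzyme, -0.62), and with oxygen the farnesyltransferase subunit Fntb was lower at its brightest probe set (-0.74) but had 0.20 at the other. Fatty acid synthesis genes had a median of -0.60, with 4 of 8 lower in the newborn ductus, namely Acaca (-0.83), Elovl6 (-0.81), Fasn (-0.72) and Acly (-0.62). In the aorta 3 of 10 of them were lower (median -0.33), and with oxygen 2 of 8, Elovl6 (-0.69) and Scd2 (-0.67), while Fasn had 0.54. With oxygen the probe sets of Fasn disagreed in sign (0.54, -0.20 and -1.32), and the 7 measured for Scd2 ran from -1.53 to 0.19, so neither gene gave a common direction. Acly also had 1 weak probe set with the opposite sign in newborn over fetal ductus (L27075_g_at, 0.44). For birth limma called 0 of 10 efflux genes, 0 of 8 isoprenoid genes and 0 of 9 fatty acid genes. At an unadjusted p under 0.05, 3 efflux genes were higher and 2 lower. For isoprenoid genes that was 1 higher and 1 lower, and for fatty acid genes 0 higher and 5 lower.

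**Figure D5:**
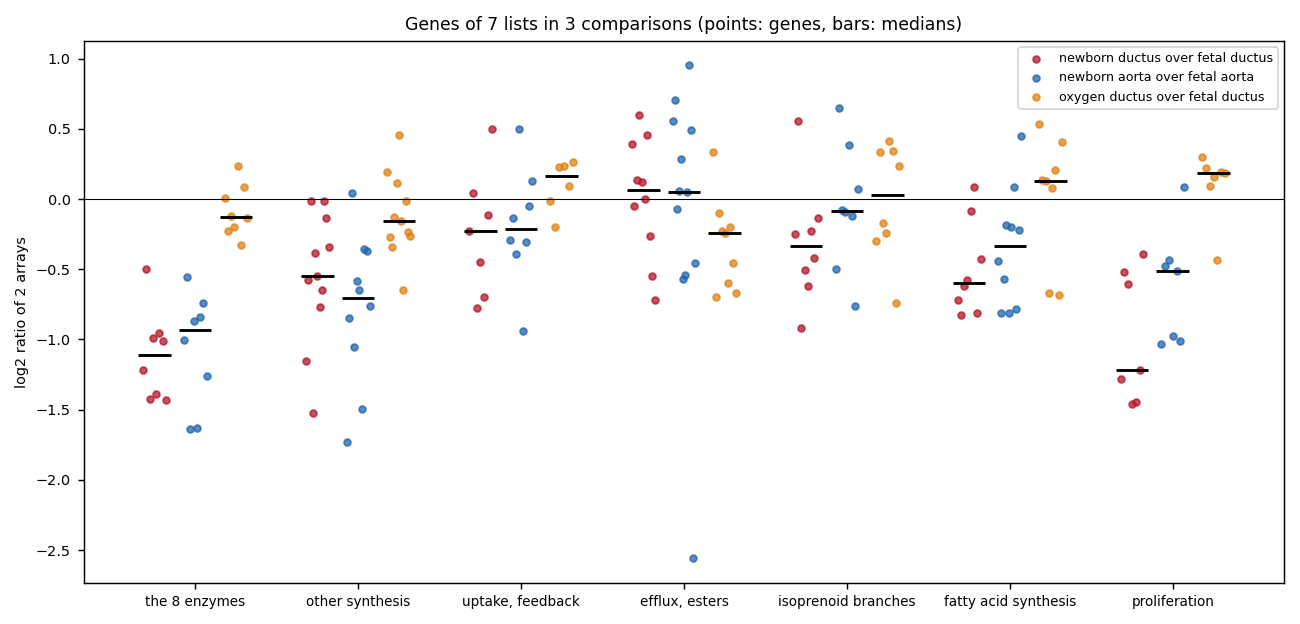
Log2 ratios (y axis) of the genes of 7 lists in 3 comparisons, with points as genes and bars as medians. For the 8 enzymes the medians are -1.11 (newborn over fetal ductus), -0.94 (newborn over fetal aorta) and -0.13 (oxygen over fetal ductus), and for proliferation genes -1.22, -0.51 and 0.19.

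Markers of other tissues and of dividing cells moved between the same arrays. The summed signals of these lists use the deposited values without the floor, so they take in signals under it. Proliferation genes (7 of 7 measured) had a summed signal of 8454 in the newborn ductus and 16717 in the oxygen ductus, against 14580.3 in the fetal ductus, and 9734.5 in the newborn aorta, against 13690.3 in the fetal aorta. In that list 5 of 7 were at least 1.5-fold lower in the newborn than in the fetal ductus (median -1.22), 3 of 7 in the newborn than in the fetal aorta (median -0.51) and 0 of 7 in the oxygen ductus (median 0.19). Over all genes these shares were 9.59%, 11.0% and 5.38%. Heart muscle markers, 8 of 8 measured, summed to 7570 in the newborn ductus and 19305 in the oxygen ductus, against 23828 in the fetal ductus, and to 13233 in the newborn aorta, against 9581 in the fetal aorta.

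Smooth muscle markers summed to 82155 in the newborn ductus and 55694 in the oxygen ductus, against 54580.5 in the fetal ductus, and to 52337 in the newborn aorta, against 38039.5 in the fetal aorta. Endothelial markers, 5 of 6 above the floor on some array, summed to 6279.7 in the newborn ductus and 4646 in the oxygen ductus, against 4585 in the fetal ductus, and to 7196 in the newborn aorta, against 4661 in the fetal aorta. Both sums were highest in the newborn of each vessel. Erythroid markers, 6 of 7 with a probe set, summed to 50681 in the newborn ductus and 39417 in the oxygen ductus, against 39335 in the fetal ductus, and to 45865.5 in the newborn aorta, against 60586 in the fetal aorta. Within that list Hbe1, an embryonic globin, was at 261 in the newborn ductus, against 6741 in the fetal ductus. In the newborn aorta it was at 328, against 17355 in the fetal aorta. Alas2 went the other way, at 8346 in the newborn ductus, against 2369 in the fetal ductus. In the newborn aorta it was at 8588, against 5463 in the fetal aorta. At least 1.5-fold apart after birth, 2 of 6 erythroid genes were higher and 2 lower in the ductus, and 1 higher and 4 lower in the aorta. Over all genes 7.56% were higher and 9.59% lower in the ductus, and 581 of 7676 higher and 11.0% lower in the aorta. Nerve and chromaffin markers, 4 of 6 above the floor on some array, summed to 622 in the newborn ductus and 747 in the oxygen ductus. Their sum was 867 in the fetal ductus, 545 in the newborn aorta and 1856.5 in the fetal aorta. Only 2 were above the floor in each ductus state, 1 in the newborn aorta and 4 in the fetal aorta.

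Fat markers summed to 4943 in the newborn ductus and 3569 in the oxygen ductus, against 4291 in the fetal ductus, and to 13611 in the newborn aorta, against 4645 in the fetal aorta. Lep alone had 3116 in the newborn ductus and 2803 in the fetal aorta, much of the sum there. Above the floor were 5 of 10 in the newborn and in the oxygen ductus, 4 in the fetal ductus, 9 in the newborn aorta and 4 in the fetal aorta. Fabp4, the fatty acid binding protein of fat cells, stood at 3489 in the newborn aorta, against 123 in the fetal aorta, under the floor. Newborn over fetal aorta, 8 of 9 fat genes were higher and Lep was lower (-0.18). Liver and yolk sac markers, 5 of 7 above the floor on some array, summed to 723 in the newborn ductus and 651 in the oxygen ductus. Their sum was 967 in the fetal ductus, 699.5 in the newborn aorta and 2136 in the fetal aorta. Above the floor were 3 in the newborn, 1 in the oxygen and 2 in the fetal ductus, 1 in the newborn aorta and 4 in the fetal aorta. Of the adrenal cortex list, a sterol-rich tissue, 5 of 8 genes had a probe set, Star, Cyp11a1, Cyp17a1 and Cyp21a1 were under the floor on every array, and Nr5a1 alone was above it. The part of dividing, smooth muscle, endothelial, blood, nerve, heart, fat or liver cells in the enzyme ratios was not tested.

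Genes whose 5-state pattern was most like that of the enzymes were sought among 3433 genes above the floor in all 5 states with a span of at least 1.5-fold. Likeness was the root mean square difference in log2 signal from the mean pattern of the 8 enzymes, each gene centred on its own mean. The nearest were Pafah1b3 (0.0808), Sytl2 (0.0930) and Erlin1 (0.0963), followed by Tk1, Smg5, Pip4p1, Ifnar2, Snrpb, Mllt11 and Zwint (0.140 for the tenth). The 8 enzymes themselves lay 0.103 (Cyp51) to 0.315 (Fdft1) from their own mean, so Fdft1 was least like the others. Pafah1b3, for example, had 269 in the newborn ductus and 519.6 in the oxygen ductus, against 517 in the fetal ductus, and 345 in the newborn aorta, against 633 in the fetal aorta. None of the 10 was in the lists above. Among the pathway lists the nearest gene was Acaca, at rank 31 (0.176), followed by Mvd at rank 77 (0.220). Ranks of the marker lists, proliferation included, are not given here. Over 5 arrays such likeness is a description of these samples only.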

How the data were processed

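RNA of 5 vessel states was hybridised to Affymetrix rat chips A, B and C. The deposited values are linear signal intensities; per the submitters' processing notes MAS5 was used for 4 arrays of chip A, and the software of the others is not given in the sources used here. Means trimmed by 2% at each end were 500 to 501 on every array, so the deposited values were left unscaled. For chips B and C states come from the titles, and the newborn aorta array of chip A, titled as 3 h after coitum, is described as newborn.

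Probe sets were named through the platform annotation (18178 with 1 gene, 391 with several, 7633 with none). Signals were floored at the pooled median of the chip before log2, and a gene was compared where either array was above the floor. Differences of at least 1.5-fold were counted, with 2-fold as a stricter alternative. limma 3.58.1 (R 4.3.3) was fitted per chip, with vessel and stage as terms, where 2 or more of the 4 arrays exceeded the floor, with Benjamini-Hochberg adjusted p under 0.05. On simulated data it recovered 65 of 100 2-fold and 100 of 100 4-fold birth changes and called 4 of 13610 unchanged probe sets. Other alternatives were floors at 0.5 and 2 times the median, median centring, quantile normalization, averaging of probe sets and an intensity trend.

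The enzymes and the gene lists were chosen with earlier results of these data known. Named were all enzymes with every probe set, all measured genes of the other synthesis list, genes of the other lists at least 1.5-fold apart in newborn or oxygen against fetal ductus, Insig1, Srebf1 and Srebf2, and the 10 genes most like the enzymes. Promoters were to be printed where they hold TCACNCCAC, which none did. Marker genes were named after their values were seen. Python 3.11.15 was used for the rest.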

Additional observations from a re-analysis of the deposited data

Results flagged for a closer look

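Srebf1 had a log2 ratio of newborn to fetal ductus of -0.78 (394 in the newborn ductus, against 674.5 in the fetal ductus), whereas its ratio of newborn to fetal aorta was 0.50 (1013 in the newborn aorta, against 716.5 in the fetal aorta). Coq2 likewise had -0.62 in the ductus (320 in the newborn, against 491 in the fetus) and 0.38 in the aorta (559 in the newborn, against 429 in the fetus). The opposite signs in the vessels drew attention to both genes. The other Srebf1 probe set had -0.86, a bound, in the ductus, with 0.56 in the aorta, whereas the other Coq2 probe set above the floor (rc_AI103360_at) had -0.15 and -0.17, with no opposite sign. With 1 array per state, neither difference between the vessels was tested.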

How the results depend on the processing

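All 80 birth ratios of the 8 enzymes under the 5 alternatives for ratios (2 floors, median centring, quantile normalization, averaged probe sets) stayed below 0 (-1.81 to -0.16). Of the 237 enzyme ratios under alternatives in all comparisons, 20 moved by more than 1 yardstick SD and no called ratio turned. Averaging all probe sets of a gene, dim ones included, left 4 enzymes at least 1.5-fold lower in newborn over fetal ductus (median -0.59) and 4 in newborn over oxygen ductus (median -0.52). A floor at 2 times the pooled median brought the median of newborn over oxygen ductus to -0.79 over the 7 enzymes still measured. In that comparison the median of all genes was -0.11 with this floor and -0.10 with quantile normalization. At 2-fold, 4 enzymes were lower in newborn over fetal aorta (2.71% of all genes). In fetal ductus over fetal aorta 0 were (73 of 7610 genes), and in newborn ductus over newborn aorta 0 (89 of 7528 genes). At 1.5-fold, quantile normalization gave 2 in newborn ductus over newborn aorta. The shares of all genes with averaged probe sets or quantile normalization were not counted here, so nothing is read from those counts. The limma count for birth was 233 probe sets and 532 with an intensity trend. For vessel it was 5, with 21 at 0.5 times the floor, 8 at 2 times the floor, 65 with the trend and 21 with quantile normalization. With the trend Acly and Scarb1 were called too, and with quantile normalization Elovl6 and Scd2. The Scarb1 probe set fitted had -0.54 in the ductus and -2.56 in the aorta, where the newborn signal (168.5) was near the floor. Other Scarb1 probe sets had 0.20 and -0.40 (AF071495_s_at) and -0.53 and -0.90 (D89655_at). Acat2 and Mvd lost their calls with the lower floor and quantile normalization, and Tm7sf2 with quantile normalization. The causes of these shifts were not tested, except that dim probe sets and higher floors shrink ratios by construction. No paired analysis was possible because each state had 1 array per chip type and no replicate numbers. Signals of Nsdhl, Sc5d and Dhcr7 in the newborn ductus were near the floor, and a higher floor shrank their ratios.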
